A study of Mus musculus with 6 samples.

Results

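Potassium channel genes were taken as every row of the deposited table whose symbol begins with Kcn, goes on with lower-case letters and ends in a number. The rule found 74 genes among 18158 listed features and used no measured value. Of these, 27 reached 1 TPM or more in at least 3 of the 6 libraries and could be tested, and 47 did not. TPM (transcripts per 1000000) corrects a level for transcript length and gives every library an equal total, so levels of different genes can be set side by side.

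Each of the 6 libraries was made from the ventricles of 1 mouse of the outbred CD1 stock at 3 months of age. For 14 days, 3 mice received PBS, the vehicle, by daily injection. The other 3 received Paro/Neo, the aminoglycoside antibiotics paromomycin and neomycin, injected into the peritoneum at 150 mg/kg, 2 times daily over the same span. No genotype or allele is named in the labels for either group, and the design text sets treated against vehicle hearts, with the drug pair described as suppressing the transcription factors Meis1 and Hoxb13.

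Potassium channels let potassium ions leave the heart cell, end the action potential and hold the resting voltage. Voltage-gated channels open on depolarization, inward rectifiers set the resting potential and sense acetylcholine or ATP, and 2-pore-domain channels carry background currents. Accessory subunits form no pore of their own and change the number, voltage dependence or speed of the channels they bind. In the mouse ventricle the fast transient outward current, carried by Kv4 pores with the accessory protein KChIP2, is a main repolarizing current.

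The part that makes a subunit conduct potassium is short and shared, and it separates the pore subunits of the set from the accessory ones. It is the selectivity filter, a glycine, a tyrosine or phenylalanine, and a glycine, preceded at a distance of 1 residue by a threonine or serine. In the longest complete coding sequence of each gene (GENCODE M21 transcripts, GRCm38), the codons of this run stood in frame in 60 of 60 pore subunits and in 0 of 14 accessory subunits. They stood in 2.65% of the 21500 mouse genes with such a sequence. Of the 7 Kcnk genes, which carry 2 pore loops in each subunit, 4 had 2 matches and the other 3 had 1. The coding stretches of 7 members that the results below turn on, or that show another form of the run, are given 5′ to 3′ with the 5 codons of the match in capitals.

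Kcnd2: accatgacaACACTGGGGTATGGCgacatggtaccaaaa
Kcna5: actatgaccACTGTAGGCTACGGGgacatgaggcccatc
Kcnh2: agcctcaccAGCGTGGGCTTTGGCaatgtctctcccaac
Kcnj2: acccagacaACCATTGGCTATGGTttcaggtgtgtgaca
Kcnj11: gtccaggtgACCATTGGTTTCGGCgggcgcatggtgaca
Kcnk3, the first match: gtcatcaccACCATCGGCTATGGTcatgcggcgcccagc
Kcnk3, the second match: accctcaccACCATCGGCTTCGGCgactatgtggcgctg
Kcnk2, the first match: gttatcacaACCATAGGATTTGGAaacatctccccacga
Kcnk2, the second match: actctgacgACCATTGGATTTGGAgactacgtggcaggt

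Inferred from the ratios between values, assigned reads came to at least 9556387 in the shallowest library and 15969980 in the deepest. All 74 symbols matched 1 gene each in GENCODE M21. Paro/Neo replicate 1 stood apart from the others, at 36.3 on the first principal component against -16.3 to 3.24. It was the highest or the lowest library for 59.8% of all tested genes and for 16 of the 27 tested potassium channel genes (59.3%). Vehicle replicate 1 was the highest or the lowest for 14 of the 27 (51.9%), against 27.5% of all tested genes. As a check of the tissue label, the ventricular light chain Myl2 was at 51694 to 69835 TPM across the hearts, while the atrial light chain Myl7 lay between 25.7 and 221 TPM. In bulk tissue, fewer cells of a type and less RNA per cell cannot be told apart.

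None of the 27 tested genes passed the threshold, an adjusted p under 0.05 (Benjamini-Hochberg over 12409 genes) in limma on log2(TPM + 1). Among all tested genes 0.137% passed, 0.121% higher and 0.0161% lower. Without adjustment 5 of the 27 (18.5%) had a p under 0.05 by limma, 2 of them higher in Paro/Neo hearts and 3 lower. Over all tested genes the share was 7.61% (3.24% higher and 4.37% lower). The higher ones were Kcnip2 and Kcnj11, and the lower ones Kcne1, Kcnk2 and Kcna5. The groups did not overlap for 4 members, Kcnip2 on the higher side and Kcnk2, Kcna5 and Kcne4 on the lower, a share of 14.8% against a background of 14.3% (6.04% higher and 8.22% lower). These shares without overlap are close, so the count without overlap says nothing particular about these genes. The median log2 change of the 27 was 0.03, beside -0.02 over all tested genes, with 14 higher and 13 lower. The intervals below are 95% intervals of the log2 change from the same fit, and a p that misses the threshold does not show that 2 groups are alike.

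**Figure D1:**
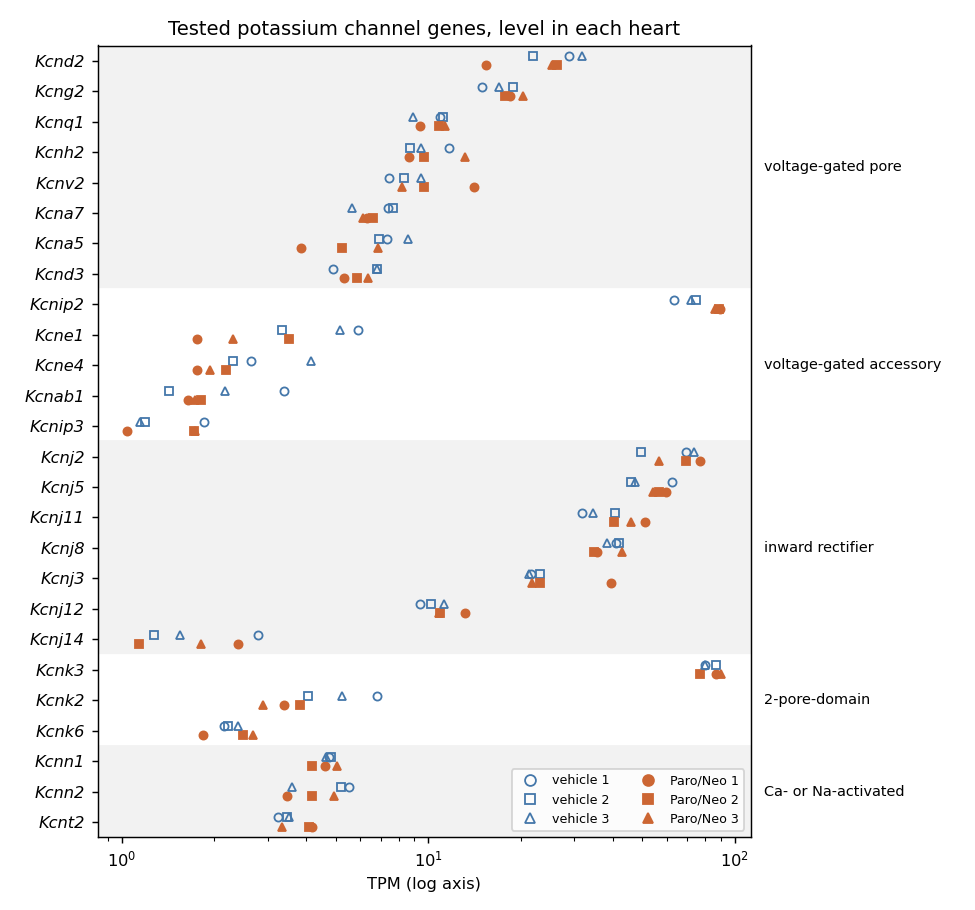
Level in TPM (log axis) of 26 of the 27 tested potassium channel genes in each heart, by class of subunit and, within a class, by mean level, with open blue symbols for vehicle hearts, filled orange symbols for Paro/Neo hearts and the shape for the replicate. Kcnk3, Kcnip2, Kcnj2 and Kcnj5 lie highest, and the 2 groups overlap for all genes shown but Kcnip2, Kcnk2, Kcna5 and Kcne4.

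The mRNA of these genes was concentrated in a few members. The 5 most abundant, Kcnk3, Kcnip2, Kcnj2, Kcnj5 and Kcnj11, made up 57.7% to 63.3% of the summed level of all 74 in each library, and the 10 most abundant 79.6% to 84.4%. The 47 genes below the filter together made up 1.67% to 2.37%. The summed level was 531, 511 and 531 TPM in vehicle replicates 1 to 3 and 577, 541 and 555 TPM in Paro/Neo replicates 1 to 3. Every treated heart was thus above every vehicle heart, also after median ratio scaling and quantile normalization. Without Kcnip2 alone the sums were 468, 436 and 459 TPM against 487, 452 and 468 TPM, and the groups overlapped.

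Among the accessory subunits of voltage-gated channels, 11 genes in all, 5 were tested, and Kcnip2 and Kcne1 had the smallest unadjusted p of the 27. Kcnip2 encodes KChIP2, the calcium-binding partner that brings Kv4 pores to the cell surface (chromosome 19 at 45791839 to 45816061, GRCm38, GENCODE M21). It was at 63.6, 74.9 and 72.0 TPM with vehicle and at 89.8, 88.6 and 86.6 TPM with Paro/Neo. All 3 treated hearts lay close together and above the highest vehicle heart. The means were 70.2 TPM ± 5.85 and 88.3 TPM ± 1.61 (SD, n = 3 each), a 1.26-fold ratio. The log2 change was 0.33 ± 0.10 (SE; interval 0.10 to 0.56), with an unadjusted p of 0.0097 and an adjusted p of 0.458 by limma. It stayed between 0.26 and 0.38 in all 14 alternative fits, with 0.32 without Paro/Neo replicate 1 and the lowest value, 0.26, without vehicle replicate 1, where its unadjusted p was just above 0.05.

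Kcne1 encodes a single-span subunit that slows the opening of the Kcnq1 channel and so shapes the slow delayed rectifier current (chromosome 16 at 92345982 to 92359468). Its level was 5.88, 3.33 and 5.16 TPM with vehicle and 1.76, 3.50 and 2.30 TPM with Paro/Neo, on 45 to 152 reads per library. The groups overlapped, since vehicle replicate 2 was below Paro/Neo replicate 2. The means of 4.79 TPM ± 1.32 and 2.52 TPM ± 0.89 gave a ratio of 0.527, the lowest of the tested members. The log2 change was -0.72 ± 0.23 (SE; interval -1.26 to -0.18), with an adjusted p of 0.497 by limma. It was -0.56 without Paro/Neo replicate 1 and -0.58 without vehicle replicate 1, both with an unadjusted p above 0.05.

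Kcne4, of the same family and known as an inhibitor of Kcnq1 and Kv1 channels, was at 2.63, 2.31 and 4.13 TPM with vehicle and 1.76, 2.18 and 1.94 TPM with Paro/Neo. The groups did not overlap, but the highest treated heart lay just under the lowest vehicle heart, and the log2 change of -0.42 had an adjusted p of 0.661 by limma. Without vehicle replicate 3 the log2 change was -0.23. Kcnab1, a cytoplasmic beta subunit of Kv1 channels, was at 3.37, 1.43 and 2.17 TPM against 1.64, 1.81 and 1.73 TPM. The treated hearts fell inside the wide vehicle range, and without vehicle replicate 1 the log2 change went from -0.24 to -0.03. Kcnip3, also known as calsenilin, was the lowest of the tested members, at 1.85, 1.19 and 1.14 TPM against 1.04, 1.72 and 1.73 TPM, with the groups mixed.

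**Figure D2:**
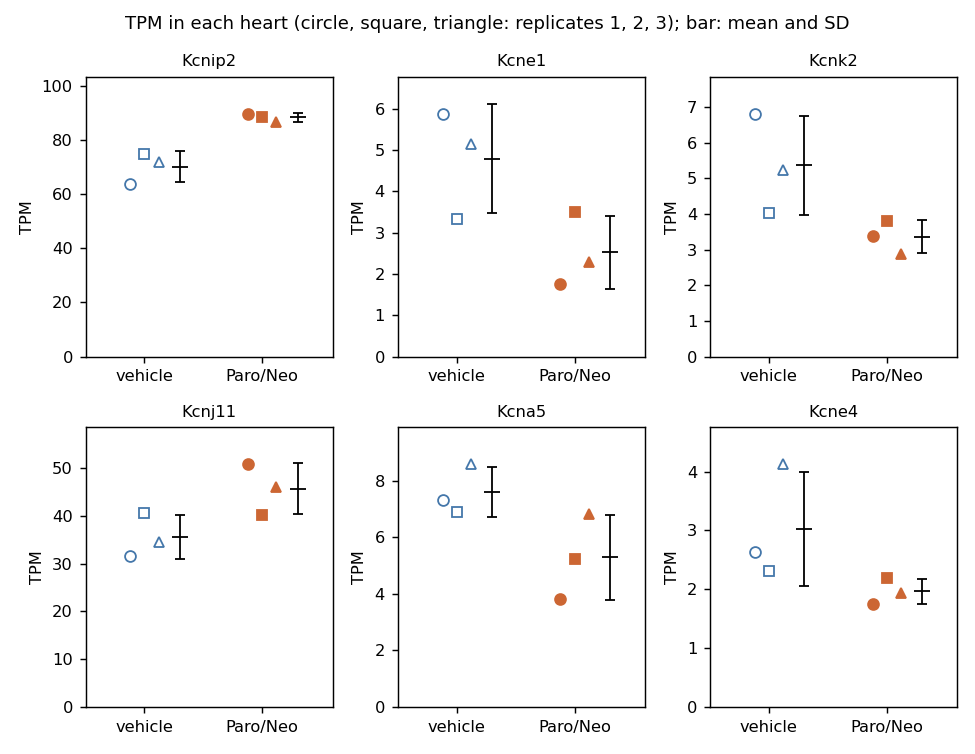
TPM in each heart (linear axes from 0) of the 5 members with an unadjusted p under 0.05 and of Kcne4, whose groups do not overlap, with circle, square and triangle for replicates 1, 2 and 3 and a bar for the mean and SD. Kcnip2 shows 3 close treated hearts above 75 TPM, and Kcne1 and Kcnj11 show groups that overlap by 1 heart each.

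The bases upstream of Kcnip2 are shown because the list of partner genes contains Klf15, a zinc-finger factor known to drive Kcnip2 in the mouse heart, and both genes were higher in each treated heart. The part of Klf15 in the Kcnip2 level was not tested. Klf15 was at 27.5, 16.3 and 23.5 TPM with vehicle and 28.3, 32.5 and 33.1 TPM with Paro/Neo. Paro/Neo replicate 1 lay only just above the highest vehicle heart, and the log2 change of 0.49 had an adjusted p of 0.568 by limma. Within each group, the order of the hearts by Klf15 was the reverse of their order by Kcnip2. The 250 bases before the RefSeq start (chromosome 19 at 45816064 to 45816313, minus strand, GRCm38.p6) are printed in lower case, with each copy of CACCC or GGGCGG, on either strand, in capitals.

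Kcnip2 upstream: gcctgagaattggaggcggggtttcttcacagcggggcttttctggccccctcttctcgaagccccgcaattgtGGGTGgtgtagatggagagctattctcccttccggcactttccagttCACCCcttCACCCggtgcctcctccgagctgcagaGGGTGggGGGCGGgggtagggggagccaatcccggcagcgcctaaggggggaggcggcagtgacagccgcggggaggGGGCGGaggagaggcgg

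The window held 4 copies of CACCC, counted on both strands, the core of the box that factors of the Klf family bind, and 2 copies of GGGCGG, the GC box, counted likewise. The 2 motifs share no bases here. CACCC on either strand is common: 52.0% of 32851 windows of this length held it. By gene it stood in 16 of 17 tested members with a window, against 54.5% of 27025 genes. Over all members with a window, tested or not, it stood in 45 of 53. The 27025 are all genes with a window, whatever their level in these hearts, so they are not a matched set for the tested members. GGGCGG on either strand stood in 32.7% of windows and, by gene, in 9 of the 17 tested members, against 35.4% of all genes. A match describes the letters and does not show a bound site. TATAAA on either strand stood upstream of 0 of those 17 members and of 14.3% of all genes.

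Among the pore subunits of voltage-gated channels, 32 genes in all, 9 were tested, 4 higher and 5 lower. Kcnd2 encodes Kv4.2, the main pore of the fast transient outward current in the mouse ventricle. It was at 28.9, 21.9 and 31.8 TPM with vehicle and 15.4, 26.3 and 25.4 TPM with Paro/Neo. Paro/Neo replicate 1 was the lowest of the 6, while the other treated hearts lay inside the vehicle range. The log2 change of -0.31 ± 0.22 (SE; interval -0.81 to 0.20) went to -0.07 without that heart. Kcnd3, which encodes Kv4.3, was at 4.88, 6.80 and 6.78 TPM against 5.29, 5.83 and 6.37 TPM, and the treated hearts lay within the vehicle range.

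Kcna5 encodes Kv1.5, a pore of the ultra-rapid delayed rectifier (chromosome 6 at 126532551 to 126535412). It was at 7.32, 6.89 and 8.60 TPM with vehicle and 3.83, 5.22 and 6.83 TPM with Paro/Neo. Every treated heart was below every vehicle heart, by a margin of under 0.1 TPM for Paro/Neo replicate 3. The log2 change was -0.47 ± 0.19 (SE; interval -0.91 to -0.04), with an unadjusted p of 0.0351 and an adjusted p of 0.593 by limma. Without Paro/Neo replicate 1 it was -0.30, and without Paro/Neo replicate 3 it was -0.65. Its unadjusted p was above 0.05 without vehicle replicate 1 or 3 and without Paro/Neo replicate 1 or 2.

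The other Kv pores showed smaller differences. Kcng2 and Kcnv2 encode electrically silent subunits, which conduct only when they join another pore subunit. Kcng2 was at 14.97, 19.0 and 17.1 TPM with vehicle and 18.5, 17.8 and 20.4 TPM with Paro/Neo. Kcnv2 was at 7.43, 8.33 and 9.45 TPM against 14.1, 9.68 and 8.18 TPM, and its log2 change went from 0.28 to 0.08 without Paro/Neo replicate 1, the heart with the high value. The groups overlapped in both genes.

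Kcnq1, the pore of the slow delayed rectifier, was at 10.9, 11.2 and 8.93 TPM with vehicle and 9.43, 10.8 and 11.3 TPM with Paro/Neo. Kcnh2, the pore of the rapid delayed rectifier, was at 11.7, 8.71 and 9.49 TPM against 8.64, 9.66 and 13.1 TPM. In both genes the means were nearer than the spread between mice, and the intervals of the log2 change ran from -0.27 to 0.32 and from -0.34 to 0.46. Kcna7, a Kv1 pore of striated muscle, was at 7.41, 7.64 and 5.65 TPM against 6.30, 6.59 and 6.10 TPM, with the treated hearts inside the vehicle range.

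**Figure D3:**
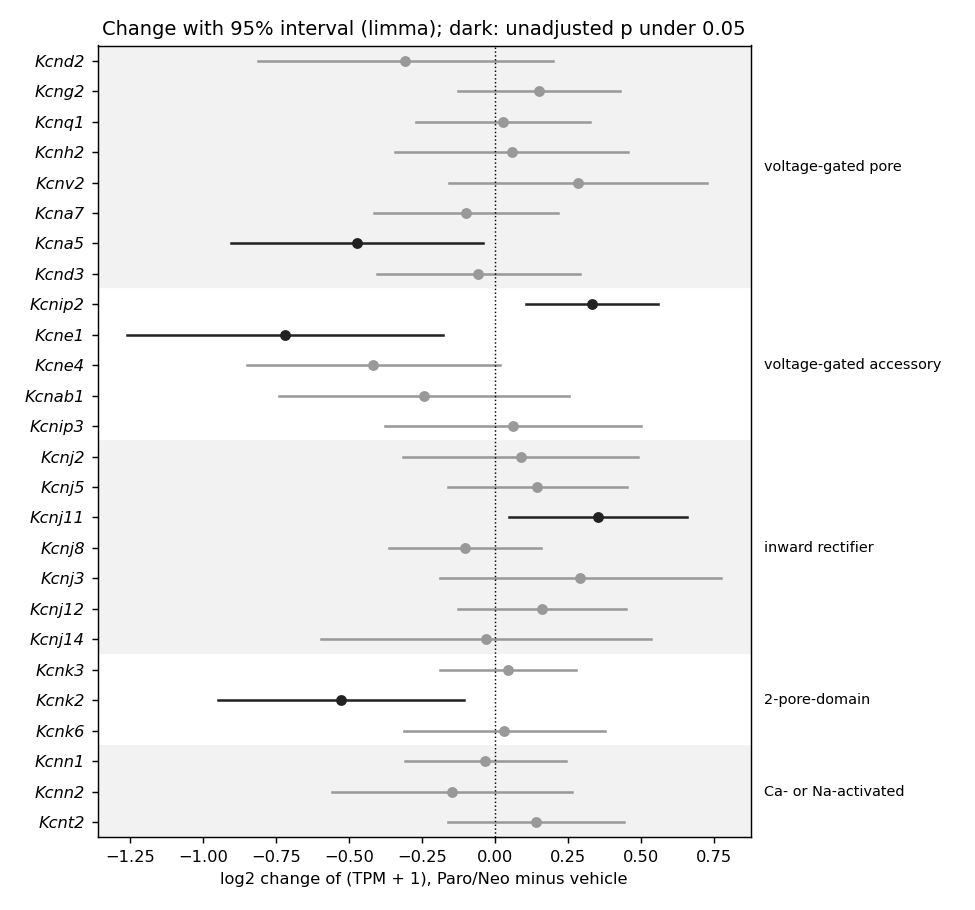
Log2 change of TPM + 1, Paro/Neo minus vehicle, for 26 of the 27 tested genes, with the 95% interval from limma as a line. Dark points have an unadjusted p under 0.05 and grey points do not; the 5 dark genes are Kcna5, Kcnip2, Kcne1, Kcnj11 and Kcnk2, and none passed after adjustment.

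Inward rectifiers formed the most abundant class, with a summed level of 240, 215 and 230 TPM with vehicle and 280, 238 and 236 TPM with Paro/Neo. Of 13 genes 7 were tested, 5 higher and 2 lower. Kcnj2 encodes Kir2.1, the main channel of the resting current in ventricular myocytes (chromosome 11 at 111066164 to 111076821). It was at 69.3, 49.6 and 73.6 TPM with vehicle and 77.3, 69.2 and 56.8 TPM with Paro/Neo, and the gap between the means was smaller than the SD of either group. Its relative Kcnj12 (Kir2.2) was at 9.42, 10.2 and 11.3 TPM against 13.2, 10.9 and 10.9 TPM, and Kcnj14 (Kir2.4) at 2.78, 1.27 and 1.54 TPM against 2.39, 1.13 and 1.81 TPM. Kcnj2 was 4.85 to 7.35 times as abundant as Kcnj12 across the 6 hearts.

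The subunits of the ATP-sensitive channel, which opens when cellular ATP falls, are a pore and a sulfonylurea receptor. Kcnj11 encodes Kir6.2, the pore of this channel in heart muscle cells (chromosome 7 at 46093953 to 46100764). It was at 31.7, 40.6 and 34.5 TPM with vehicle and 50.9, 40.2 and 46.0 TPM with Paro/Neo. Paro/Neo replicate 2 lay just below vehicle replicate 2, and the other treated hearts were above all vehicle hearts. The means were 35.6 TPM ± 4.57 and 45.7 TPM ± 5.33 (SD, n = 3 each), a 1.28-fold ratio. The log2 change was 0.35 ± 0.13 (SE; interval 0.05 to 0.66), with an adjusted p of 0.577 by limma, and it was 0.27 without Paro/Neo replicate 1. Leaving out any library other than replicate 2 of either group put its unadjusted p above 0.05.

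Kcnj8 encodes Kir6.1, the pore of the ATP-sensitive channel of smooth muscle and pericytes. It was at 41.0, 41.9 and 38.4 TPM with vehicle and 35.4, 34.8 and 42.9 TPM with Paro/Neo, with Paro/Neo replicate 3 above all vehicle hearts and the others below them. Each receptor gene lies beside a pore gene: Abcc8 lies 3.76 kb from Kcnj11 on chromosome 7, and Abcc9 lies 16.2 kb from Kcnj8 on chromosome 6. Abcc9 was at 120, 112 and 135 TPM against 80.0, 123 and 131 TPM, with Paro/Neo replicate 1 lowest. Abcc8 was far less abundant, at 4.32, 4.42 and 3.16 TPM against 3.20, 4.59 and 4.77 TPM, with the groups mixed.

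Kcnj3 and Kcnj5 encode Kir3.1 and Kir3.4, which join to form the acetylcholine-gated channel known from the atrium and the pacemaker. Kcnj5 was at 62.3, 45.8 and 47.4 TPM with vehicle and 59.9, 56.7 and 54.0 TPM with Paro/Neo, inside the vehicle range. Kcnj3 was at 21.7, 23.2 and 21.3 TPM against 39.6, 23.2 and 21.8 TPM, so that 1 treated heart stood out and the others lay with the vehicle hearts. Its log2 change went from 0.29 to 0.03 without Paro/Neo replicate 1. In that heart the atrial markers Myl7, Sln and Myl4 were at 221, 93.7 and 214 TPM, the highest of the 6 hearts for each. Nppa was at 240 TPM there, the lowest of the 6, and of the 8 atrial markers 7 were tested, 4 higher and 3 lower, with Bmp10 at 0 in 4 hearts. The summed atrial level was 714 to 1138 TPM with vehicle and 608 to 1301 TPM with Paro/Neo, and its part in the Kcnj3 value was not tested.

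Of the 7 2-pore-domain genes, 3 were tested. Kcnk3 encodes TASK-1, an acid-sensitive background channel, and was the most abundant gene of the whole set (chromosome 5 at 30588170 to 30625271). It was at 79.8, 86.7 and 79.9 TPM with vehicle and 87.1, 77.1 and 90.3 TPM with Paro/Neo. The interval of its log2 change, -0.19 to 0.28, was the narrowest after that of Kcnip2. Kcnk6 (TWIK-2) was at 2.15, 2.21 and 2.39 TPM against 1.84, 2.48 and 2.68 TPM, with the treated hearts on both sides of the vehicle range.

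Kcnk2 encodes TREK-1, a channel opened by stretch and lipids (chromosome 1 at 189207930 to 189402273). It was at 6.81, 4.03 and 5.23 TPM with vehicle and 3.39, 3.80 and 2.88 TPM with Paro/Neo, on 77 to 230 reads per library. Every treated heart was below every vehicle heart, with vehicle replicate 1 highest. The means were 5.36 TPM ± 1.39 and 3.36 TPM ± 0.46 (SD, n = 3 each), a ratio of 0.627. The log2 change was -0.53 ± 0.18 (SE; interval -0.95 to -0.11), with an adjusted p of 0.525 by limma. It was -0.37 without vehicle replicate 1 and -0.45 without Paro/Neo replicate 3, both with an unadjusted p above 0.05, and -0.53 without Paro/Neo replicate 1.

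Other cell types of the heart also express some of the lower members, and several of their markers were lower as well. All 10 fibroblast markers were lower in Paro/Neo hearts, with summed levels of 3860 to 4022 TPM with vehicle and 3006, 3754 and 3662 TPM in Paro/Neo replicates 1 to 3. They were not lower to the same extent. The log2 change was -0.02 for Dcn, the most abundant of them, -0.03 for Lum and -0.11 for Pdgfra, with overlapping groups. It was -0.83 for Col1a1, -0.82 for Col3a1, -0.78 for Col1a2 and -0.66 for Postn. Dpt, Tcf21 and Gsn lay between, at -0.28, -0.30 and -0.37. Of 10 endothelial markers 8 were lower, with sums of 4240 to 4687 TPM and, by treated replicate, 3544, 4140 and 4110 TPM. Fabp4 made up most of these sums, at 3803, 4011 and 3650 TPM with vehicle and 3082, 3564 and 3502 TPM with Paro/Neo. The higher ones were Flt1 and Emcn, at log2 changes of 0.11 and 0.06. Of 10 smooth muscle and pericyte markers 8 were lower, with overlapping sums of 450 to 543 TPM and 682, 430 and 390 TPM. By these sums Paro/Neo replicate 1, the library that stood apart, was lowest for the first 2 lists and highest for the third. The third sum was mostly Rgs5, at 610 TPM in that heart, the highest of all hearts. Acta2, Myh11, Cspg4, Pdgfrb, Vtn, Notch3 and Mcam were each lowest there, and Tagln and Cnn1 were lowest in vehicle replicate 2. None of these 30 markers passed the threshold, against 0.0161% of all tested genes on the lower side, and 8, all lower, had an unadjusted p under 0.05 by limma, against 4.37% of all tested genes. The part of these cell types in the lower values of Kcne1, Kcne4, Kcnk2 and Kcna5 was not tested. The 12 cardiomyocyte markers were split, 6 higher and 6 lower, with sums of 174989 to 182424 TPM and 172236 to 196082 TPM.

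Of the markers of cells that could add channels of another kind, 9 macrophage markers were 8 higher and 1 lower, with sums of 566 to 693 TPM and 671 to 712 TPM. Neuron and Schwann cell markers were low, with sums of 15.8 to 19.6 TPM and 13.6 to 20.5 TPM over 10 genes. The 5 erythrocyte markers were all lower, with overlapping sums of 2366 to 4997 TPM and 2434 to 3802 TPM. Of these, Hba-a1 and Hba-a2 had equal inferred reads in every heart and are not separate measurements. The 9 conduction system markers had sums of 11.3 to 14.6 TPM and 10.3 to 11.98 TPM, with Isl1 at 0 in every heart. All 4 that were tested were lower, without passing the threshold. The 5 below the filter did not all go that way. Hcn4 had a mean of 0.42 TPM with vehicle and 0.76 TPM with Paro/Neo, and Shox2 of 0.31 and 0.51 TPM. Cntn2 had equal means of 0.39 TPM, and Cacna1d was lower, at 0.43 and 0.37 TPM. The part of these cell types in the lower members was not tested.

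Channels activated by calcium or sodium were the least abundant class, with 3 of 11 genes tested and sums of 13.8 to 15.7 TPM with vehicle and 13.7 to 15.2 TPM with Paro/Neo. Kcnn1 and Kcnn2 encode small-conductance channels that open with intracellular calcium. Kcnn1 was at 4.74, 4.80 and 4.63 TPM with vehicle and 4.59, 4.18 and 5.04 TPM with Paro/Neo, and Kcnn2 at 5.49, 5.20 and 3.58 TPM against 3.44, 4.16 and 4.91 TPM. Kcnt2, a sodium-activated channel, was at 3.24, 3.47 and 3.50 TPM against 4.19, 4.08 and 3.32 TPM. The groups overlapped in all 3 genes. The large-conductance pore Kcnma1 was at 0.04 to 0.14 TPM, 2 to 9 reads per library, while its smooth muscle partner Kcnmb1 stood higher.

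Kcnmb1 was also the first gene outside the filter, at 1.11, 0.94 and 1.26 TPM with vehicle and 0.86, 0.96 and 0.88 TPM with Paro/Neo. Next came Kcna4, the Kv1.4 pore of the slow transient outward current, at 0.81, 0.72 and 1.39 TPM against 0.94, 1.05 and 0.57 TPM, and Kcna2 at 1.01, 0.92 and 0.76 TPM against 0.72, 0.72 and 1.21 TPM. Just inside it stood Kcnip3, Kcnab1 and Kcnj14, given above. Every tested member was at 1 TPM or more in all 6 hearts, so none entered through 1 group alone.

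Of the 47 genes below the filter, 5 were at 0 in every library, namely Kcnj13, Kcnmb2, Kcnk7, Kcnh8 and Kcnh4. A further 31 were above 0 in some library and never above 0.5 TPM. The other 11 exceeded 0.5 TPM in at least 1 heart. Beside Kcnmb1, Kcna4 and Kcna2 these were Kcna1, Kcnab2, Kcnj4, Kcne3, Kcnj15, Kcnc2, Kcnk5 and Kcng4. Kcne3, a partner of Kcnq1 outside the heart, was on 2 to 13 reads per library, and Kcne2, a partner of Kcnh2, on 0 to 2 reads. At such depth a difference between the groups was not detectable.

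Some members lie next to each other in the genome with very different levels. Kcnj16 and Kcnj2 are 38.2 kb apart on chromosome 11, with Kcnj16 at 0 to 3 reads per library and Kcnj2 at 1851 to 3405. Kcnj5 and Kcnj1 are 28.1 kb apart on chromosome 9, with Kcnj1 at 0 to 1 reads and Kcnj5 at 1047 to 2292. Kcne2 and Kcne1 are 47.9 kb apart on chromosome 16, and Kcna5, Kcna1 and Kcna6 follow each other on chromosome 6. In each of these runs 1 gene was tested and its neighbours were below the filter.

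Exons of 3 tested members overlap listed genes of the opposite strand: Kcnd3 with Kcnd3os, Kcnk3 with Gm9899 and Kcnq1 with Kcnq1ot1. The kit marks strand, but the strand setting of the counting is not given in the sources used here, so reads of such a pair might have been shared. Gm9899 was at 5.54 TPM ± 0.13 (SD) under vehicle and 5.79 TPM ± 0.20 under Paro/Neo, well under Kcnk3. Kcnq1ot1 was at 0.346 TPM ± 0.04 against 0.265 TPM ± 0.02, and Kcnd3os was below 1.5 TPM in every heart.

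Ratios between subunits within a heart do not depend on the scaling of the library. The pairs, partners in a complex or pores of related channels, were chosen with the values already seen, so the ratios are descriptions, with no test. Kcnip2 was 1.89, 2.61 and 1.87 times the sum of its pores Kcnd2 and Kcnd3 in vehicle hearts and 4.34, 2.76 and 2.73 times in Paro/Neo hearts. All treated hearts were above all vehicle hearts, Paro/Neo replicate 1 by far and the others by a small margin. The ratio of Kcnj11 to Kcnj8, pores known from different cell types, also did not overlap, at 0.773, 0.971 and 0.899 against 1.44, 1.16 and 1.07. The ratio of Kcnj11 to the receptor Abcc9 did overlap, at 0.263, 0.364 and 0.255 against 0.636, 0.327 and 0.351, with Paro/Neo replicate 1 far above the rest. Kcnd2 to Kcnd3, the Kv4 pores, overlapped as well, at 5.91, 3.23 and 4.69 against 2.92, 4.51 and 3.99. Kcne1 was 0.540, 0.298 and 0.577 times Kcnq1 in vehicle hearts and 0.187, 0.324 and 0.203 times in treated hearts, overlapping by vehicle replicate 2. The ratio of Kcnj3 to Kcnj5 overlapped too, at 0.348, 0.506 and 0.450 against 0.661, 0.409 and 0.404.

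**Figure D4:**
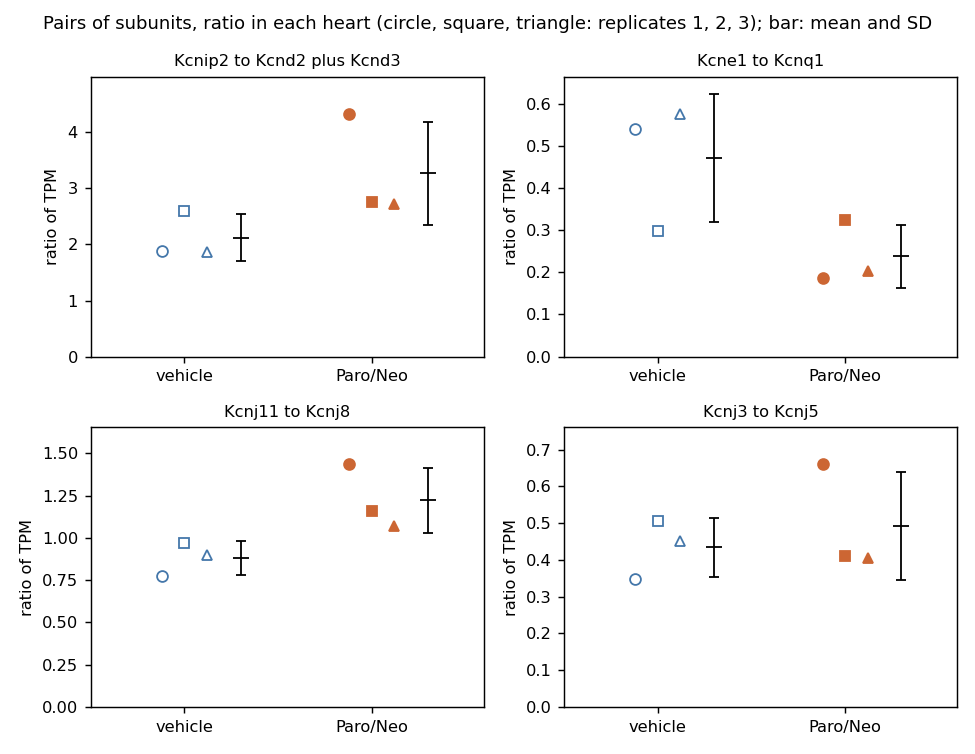
Ratio of TPM between 4 of these pairs of subunits in each heart, on linear axes from 0, with circle, square and triangle for replicates 1, 2 and 3 and a bar for the mean and SD. The Kcnip2 ratio is 1.87 to 2.61 in vehicle hearts and 2.73 to 4.34 in Paro/Neo hearts, and for Kcne1 to Kcnq1 the groups overlap.

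Partners and other currents of the cardiac action potential were read from a list of 36 genes, of which 28 were tested. None passed the threshold by limma, and on the higher side 2 had an unadjusted p under 0.05, Dlg1 and Klf15, against a background of 3.24%. The median log2 change was 0.01, with 15 higher and 13 lower. Hcn4, a pore of the pacemaker current, was below the filter, at 0.42, 0.42 and 0.43 TPM against 0.91, 0.75 and 0.61 TPM, with the treated hearts higher, on 8 to 28 reads per library.

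Dlg1, a scaffold that binds Kv1 and Kir2 channels, was at 44.5, 41.4 and 42.5 TPM with vehicle and 58.4, 47.8 and 52.2 TPM with Paro/Neo, without overlap (adjusted p 0.560 by limma). Lrrc52, an accessory subunit of large-conductance channels, was at 1.29, 0.51 and 2.33 TPM against 2.72, 2.23 and 2.04 TPM, with overlapping groups. The calcium channel pore Cacna1c was at 16.7, 16.2 and 15.5 TPM against 17.0, 19.3 and 20.9 TPM, again without overlap (adjusted p 0.694 by limma). Dpp6 and Dpp10, which join Kv4 complexes in neurons, were below 0.05 TPM in every heart. Cacna1c, Abcc8, Abcc9, Dpp6, Dpp10 and Hcn4 were chosen after their values were seen.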

How the data were processed

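The deposited values are TPM per feature, which the authors scaled to a total of 1000000 in each library. The submitters' processing notes name FastQC 0.11.5, STAR 2.5.3a, featureCounts, Subread, edgeR and the build mm10, without roles or order. The annotation, the strand setting and any filter on features were not given in the sources available for this work. Per the labels' protocols, stranded mRNA libraries were made from powdered ventricles. Groups and replicate numbers came from the titles, and each library is 1 mouse.

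Values were taken as log2(TPM + 1), which understates the change of low genes. Genes reaching 1 TPM in 3 or more libraries were fitted with limma 3.58.1 in R 4.3.3 (eBayes with an intensity trend, two-sided, Benjamini-Hochberg over 12409 genes, threshold 0.05). The fit and the inference of reads were tested on simulated data. Reads were inferred from ratios of values between libraries, whole within 0.001 of a read, and are lower estimates. Named are the tested members, those near the filter or above 0.5 TPM below it, and partner genes with an unadjusted p under 0.05, filled to 4 by p. Members and lists were chosen with earlier results of these data known. Positions are from GENCODE M21. The upstream window is from RefSeq, where 17 of the 27 tested members had one. The 14 alternatives varied the pseudocount, filter, scaling, weights, trend, block and each library left out. Some genes, 1 tested member among them, enter the fits and counts and are not reported here by name.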

Additional observations from a re-analysis of the deposited data

How the results depend on the processing

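The count of potassium channel genes past the threshold was 0 in each of the 14 alternative fits by limma, and 1 to 7 had an unadjusted p under 0.05. That was 1 without vehicle replicate 1 (against 6.16% of all tested genes), 7 without vehicle replicate 2 (5.67%) and 2 without Paro/Neo replicate 1 (7.29%). The 1 was Kcnj5, so none of the 5 genes named for that p kept it without vehicle replicate 1, and the 2 were Kcnip2 and Kcnk2. Over all tested genes, 15 were higher and 2 lower. The higher count was 5 with no filter, 25 with a replicate block, 8 with no intensity trend and 4 to 23 with 1 library left out. The lower count was 4 with array weights, 1 with no filter, the stricter filter, quantile normalization or no trend, and 0 to 4 with 1 library left out. Same-numbered hearts did not deviate together (correlations of -0.05, -0.04 and -0.12). With so few hearts, these values cannot show whether any hearts were paired. The numbers are those of the titles, and the sample descriptions number the Paro/Neo hearts differently. With the replicate block 4 members had an unadjusted p under 0.05, Kcnj11 no longer among them.

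The members' median log2 change, 0.03, was -0.017 with no filter, 0.056 with the stricter filter, -0.00042 with array weights, 0.045 with median ratio scaling and -0.055 to 0.024 with 1 library left out. The causes of these shifts were not tested. The sign turned in 20 of 354 results for the single members named. With array weights Kcnk3 was at -0.00042, and with quantile normalization Kcnj14 was at 0.0034 and Kcnn1 at 0.0054. With 1 library left out, the log2 change ran from -0.086 to 0.21 for Kcnj2, -0.013 to 0.20 for Kcnip3, -0.19 to 0.0098 for Kcnd3, and -0.10 to 0.17 for Kcnh2. It ran from -0.0026 to 0.11 for Kcnk3, -0.045 to 0.14 for Kcnk6, -0.19 to 0.18 for Kcnj14, -0.066 to 0.096 for Kcnq1, and -0.090 to 0.022 for Kcnn1. Depth limits members such as Kcne2, at 0 to 2 reads per library, more than Kcna2, at 43 to 96, which was also below the filter.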
